A study of Homo sapiens with 9 samples.

Results

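The MYC, MAX and MXD network is a small family of basic helix-loop-helix leucine zipper transcription factors, described here in PANC1 cells, an established line from a human pancreatic ductal adenocarcinoma. Its members were taken by gene name: MYC, MAX, MXD1, MXD3, MXD4, MXI1, MNT, MLX and MLXIP, 9 of the 60612 genes of the deposited table. RNA sequencing covered 9 libraries in 3 groups of 3. Control cells were wild type and untreated, overexpression cells had been transfected with a plasmid for flag-tagged NUSAP1, and knockdown cells with an siRNA against NUSAP1, the gene of a spindle protein that binds microtubules in mitosis. No library with an empty plasmid or a control siRNA was analysed here, so transfection and the change in NUSAP1 cannot be told apart. The labels do not say whether replicates were separate cultures, so p-values reflect the spread among these libraries alone, which may be technical.

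MYC drives cell growth and ribosome production and binds DNA at E boxes, of which CACGTG is the best known, only as a dimer with MAX. The MXD proteins, MXI1 and MNT compete for MAX, bind the same sites and recruit SIN3 and histone deacetylase complexes that repress transcription. MLX forms a parallel branch: it pairs with MLXIP (also called MondoA), which enters the nucleus when glucose phosphates accumulate and activates genes such as TXNIP, and it can also pair with MXD1, MXD4 and MNT.

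Total counts per library ranged from 57115172 to 73386227. NUSAP1 checked the labels: its mean FPKM (fragments per kilobase, a level scaled for gene length and sequencing depth) was 35.7 ± 5.80 (SD, n = 3) in control, 13342 ± 441 after overexpression and 12.5 ± 1.19 after knockdown. Of 10 ductal markers, the keratins KRT8, KRT18 and KRT19 were expressed in every library, while CFTR was below 0.1 FPKM. In 4 libraries (control 2 and 3, overexpression 1 and 3), 15 hepatocyte markers summed to between 21.9 and 32.3 FPKM, against 0.149 to 0.684 in the other 5, in which all but 1 marker at most stood below 0.1 FPKM. Without those 4 libraries, which leaves 1 control and 1 overexpression library, 2419, 6 and 3539 genes were called after overexpression, after knockdown and between both, against 6702, 1813 and 6270 with them. No member and no list gene was then called after knockdown, and members that lost another call are named below. The part of those transcripts in the results was not tested.

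Of the members, 3 of 8 with a RefSeq promoter window (250 bases before to 50 after a transcription start, GRCh38.p14) carried the palindromic E box CACGTG, against 8.77% of 27305 genes with a window. These were MXD4, MNT and MLX, and they are shown because MXD4 and MNT fell after overexpression while MLX, with the same motif, did not pass the test. Each stretch runs from 250 bases before to 20 bases after the start, 5′ to 3′ on the gene's strand, and capitals mark CACGTG. MXD4 lies on chromosome 4 (chr4:2262090-2262359, minus strand), with the motif starting at position -238. MNT lies on chromosome 17 (chr17:2401041-2401310, minus strand), with the motif at -193. MLX lies on chromosome 17 (chr17:42566850-42567119, plus strand), with the motif at -50.
MXD4: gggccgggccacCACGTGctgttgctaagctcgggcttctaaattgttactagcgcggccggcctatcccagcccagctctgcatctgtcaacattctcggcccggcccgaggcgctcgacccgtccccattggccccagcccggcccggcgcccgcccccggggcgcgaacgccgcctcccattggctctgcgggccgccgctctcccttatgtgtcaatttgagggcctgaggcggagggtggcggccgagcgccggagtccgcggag
MNT: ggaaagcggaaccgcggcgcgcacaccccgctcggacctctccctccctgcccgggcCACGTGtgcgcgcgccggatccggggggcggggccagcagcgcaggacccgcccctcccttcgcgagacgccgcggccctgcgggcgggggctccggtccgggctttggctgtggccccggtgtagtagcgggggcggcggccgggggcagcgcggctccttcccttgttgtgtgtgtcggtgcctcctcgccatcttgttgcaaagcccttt
MLX: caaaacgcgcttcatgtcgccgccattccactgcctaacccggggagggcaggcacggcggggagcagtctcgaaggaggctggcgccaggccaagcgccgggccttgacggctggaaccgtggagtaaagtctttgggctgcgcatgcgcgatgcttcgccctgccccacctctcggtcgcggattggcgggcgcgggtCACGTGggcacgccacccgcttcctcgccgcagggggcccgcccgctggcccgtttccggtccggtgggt
A 17-letter pair of E-box-like motifs, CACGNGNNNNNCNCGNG on either strand, the spacing known from carbohydrate response elements, was found in 0.619% of genes. Of the members it was found in MXI1 alone, at -70. It can overlap CACGTG, and a match is a match of letters and not a measured binding site.

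The members lie on 8 chromosomes, at positions given as in the deposited table, whose gene positions overlapped GENCODE 29 on GRCh38. MYC is at chr8:127735434-127741434, MAX at chr14:65006174-65102695 and MXD1 at chr2:69897688-69942942. MXD3 is at chr5:177301461-177311895, MXD4 at chr4:2247432-2262109 and MXI1 at chr10:110207605-110287365. MNT (chr17:2384073-2401104) and MLX (chr17:42567068-42573239) share a chromosome, and MLXIP is at chr12:122078756-122147344. The values cover each whole gene, and transcripts were not separated.

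Levels were compared between members in FPKM. In control cells MLX (14.3 ± 1.25 FPKM, SD, n = 3) and MYC (12.7 ± 0.421) were the highest, and their libraries overlapped. MXD3 (7.78 ± 0.829), MLXIP (7.26 ± 0.607) and MXD4 (6.57 ± 0.554) followed, each overlapping its neighbour. MAX, MNT and MXI1 stood at 3.72 ± 1.65, 2.65 ± 0.141 and 2.56 ± 0.469, again overlapping, and MXD1 was lowest at 0.473 ± 0.142. MXD1 reached 1 FPKM in a single library and so missed the filter of 1 FPKM in at least 3 libraries, which left 8 members among 12545 genes tested.

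**Figure D1:**
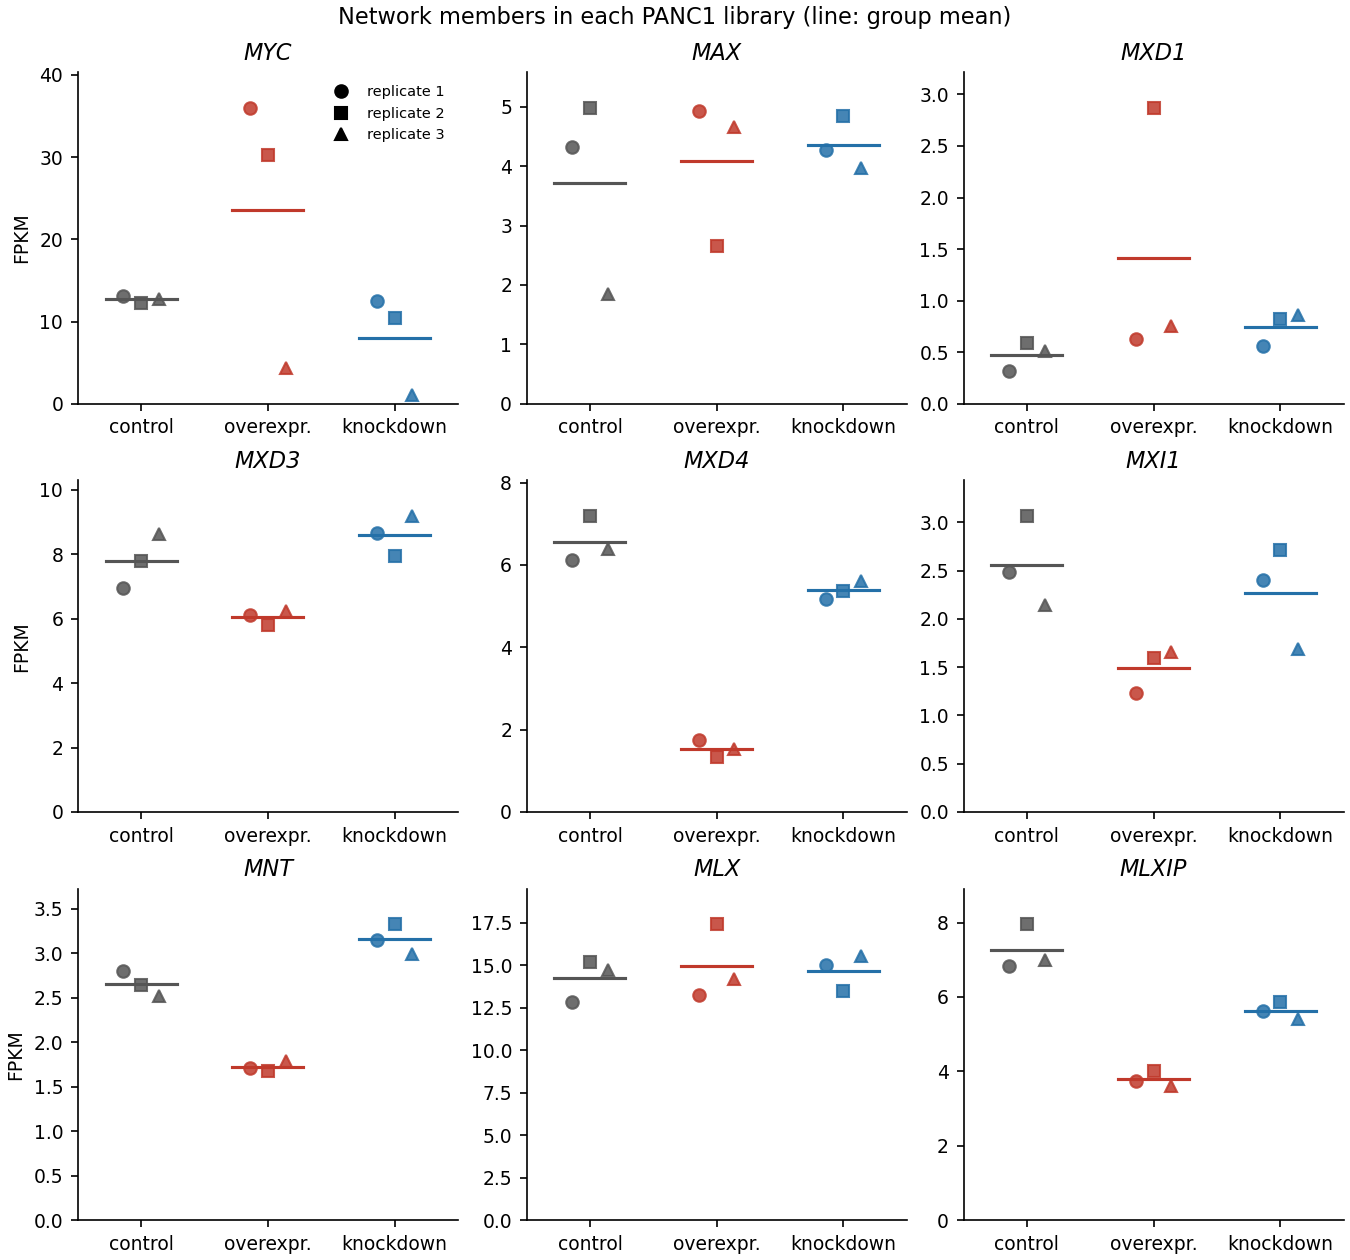
FPKM of the 9 members in each library, on linear axes that start at 0, with a marker shape for each replicate number, a colour for each group and a line at the group mean. MXD4 stood between 1.34 and 1.75 in the overexpression libraries and above 5 in the other 6, while MYC spread from 4.41 to 36.0 within the overexpression group.

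Counts were compared with edgeR's quasi-likelihood test in 1 model of 3 groups, and a gene was called at a Benjamini-Hochberg adjusted p below 0.05 over all tested genes. After overexpression 5 of the 8 tested members were called, all lower: MXD3, MXD4, MXI1, MNT and MLXIP. MYC, MAX and MLX did not pass. Among all tested genes 53.4% were called in this comparison, 27.4% higher and 26% lower, and 62.8% had groups that did not overlap in FPKM. The same 5 members had groups that did not overlap. The count of 5 of 8 is thus near the background. The median log2 fold change of the members was -0.41, beside -0.0037 for all tested genes. After knockdown 1 member, MLXIP, was called lower, against 14.5% of all genes (7.02% higher and 7.43% lower). Groups did not overlap for 3 members (MXD4, MNT and MLXIP), against 35.8% of genes. Overexpression set directly against knockdown gave 4 calls, all lower (MXD3, MXD4, MNT and MLXIP), against 50% of genes (25.5% higher and 24.5% lower). Groups did not overlap for those 4 and MXI1, against 60.1% of genes. The 3 comparisons share libraries and are not independent. On a TPM scale the calls over all genes were more often higher, 3950 higher and 2244 lower after overexpression (3438 and 3264 in the count test) and 1306 and 456 after knockdown (881 and 932 in the count test).

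**Figure D2:**
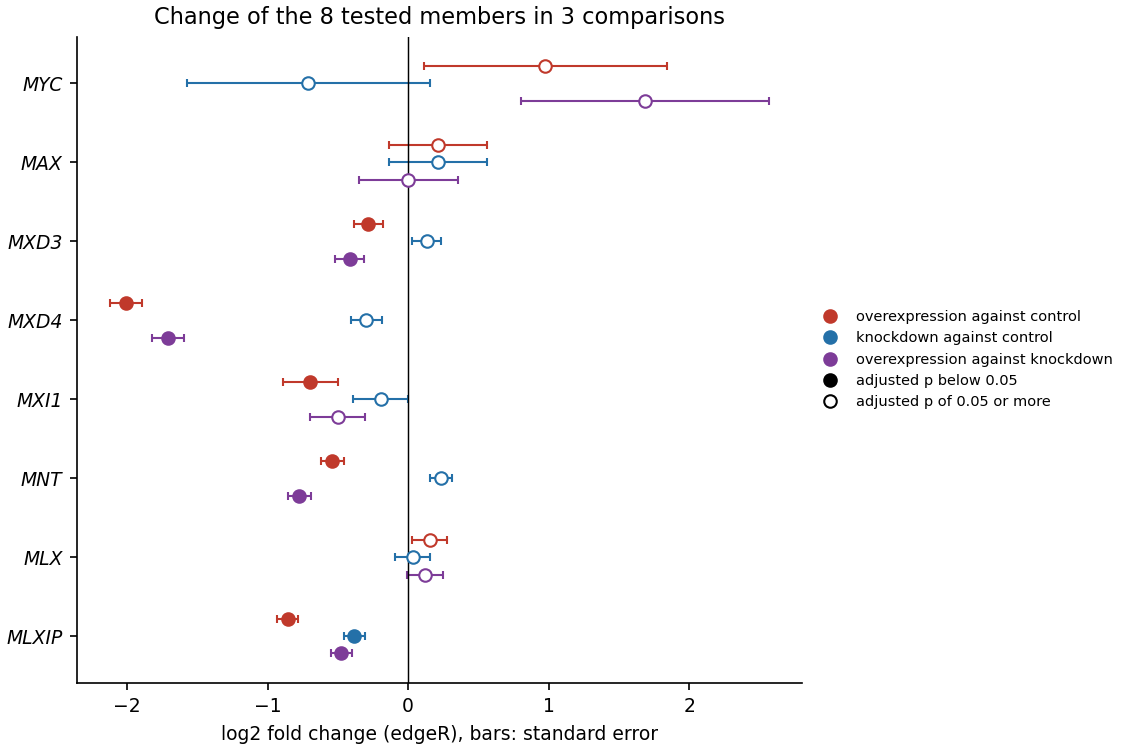
Log2 fold changes of the 8 tested members in the 3 comparisons, with bars of 1 approximate standard error and filled points for adjusted p below 0.05. MXD4 changed by -2.01 after overexpression, and the bars of MYC are the widest of the 8 members.

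MYC itself did not follow its group. Its FPKM in control libraries 1 to 3 was 13.1, 12.3 and 12.7. Overexpression 1 to 3 read 36.0, 30.3 and 4.41, and knockdown 1 to 3 read 12.5, 10.4 and 1.06. Thus overexpression 1 and 2 stood above every control, whereas overexpression 3 and knockdown 3 stood far below, and the groups overlapped in every comparison. The reads behind these values were many: overexpression 1 to 3 had 12398, 10511 and 1536 counts and knockdown 1 to 3 had 3919, 3450 and 408, so counting error is small beside the gaps. MYC changed by 0.98 ± 0.87 (log2, SE) in overexpression cells (edgeR adjusted p = 0.375), and by -0.71 ± 0.86 with knockdown (adjusted p = 0.648), so neither passed. Between overexpression and knockdown it was 1.69 ± 0.88 (adjusted p = 0.146). Without overexpression 3 the first became 1.47 ± 0.75 (adjusted p = 0.145), and without knockdown 3 the second became -0.20 ± 0.70 (adjusted p = 0.886). Overexpression 3 is among the libraries with hepatocyte transcripts and knockdown 3 is not. The cause of the low MYC values was not tested. In bulk RNA, fewer cells with the transcript and less RNA per cell cannot be told apart.

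The spread of MYC was unusual for these libraries. Its range of log2(FPKM + 1) within the overexpression group was 2.77, and only 0.175% of tested genes had a range as large. In the knockdown group the range was 2.71, matched by 0.223% of genes. In control it was 0.09, below the median gene's 0.22.

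The next gene downstream, PVT1, a long non-coding RNA that starts 53092 bases past the end of MYC on chromosome 8, did not share the drop. It was chosen after its values were seen. PVT1 counts were 1502, 1567 and 1417 in control, 3765, 3972 and 4024 after overexpression, and 1606, 1529 and 1765 after knockdown. All 3 overexpression libraries, including the one with low MYC, exceeded every other library. In FPKM it stood at 0.682 to 0.841 in control and 1.99 to 2.10 after overexpression, so it passed the filter only through the group where it was high, and no test is given. CASC11, on the other side of MYC, had at most 31 counts in any library.

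By the mean absolute difference of log2(FPKM + 1) deviations from group means over the 9 libraries, the gene most like MYC among 6458 genes with a mean FPKM of at least 5 was HOXC6, a homeobox transcription factor (0.307, where the median gene had 0.810). HOXC6 stood at 18.4, 18.7 and 18.3 FPKM in control, 10.03, 4.37 and 2.26 after overexpression, and 19.4, 20.3 and 4.10 after knockdown. It shared with MYC the lowest value in overexpression 3 and in knockdown 3. SLC35F6 (0.441), RASSF8 (0.473), the AP-1 subunit JUND (0.482) and UBFD1 (0.494) came next. Of these, JUND fell from 19.4 and 14.9 FPKM to 3.27 in overexpression 3 but stood at 21.3 in knockdown 3, so its likeness rested on the overexpression group. None of these 5 genes passed the edgeR test in any comparison. The likeness is a description of within-group spread over libraries of shared groups.

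MAX, the common partner, varied by library too, and not in the same libraries as MYC. It stood at 4.32, 4.98 and 1.85 FPKM in control, at 4.93, 2.65 and 4.66 after overexpression, and at 4.27, 4.84 and 3.97 after knockdown. The low values were control 3 and overexpression 2, and all groups overlapped. The range within control, 1.07 on the log2(FPKM + 1) scale, was matched by 3.03% of tested genes. The log2 fold changes were 0.21 ± 0.35 after overexpression (edgeR adjusted p = 0.640) and 0.21 ± 0.35 after knockdown (adjusted p = 0.748). Without control 3 both turned negative, at -0.12 and -0.14. The MAX locus overlaps FNTB on the opposite strand, and the sources used here do not say whether reads were counted by strand. FNTB counts were 2406, 2344 and 2297 in control, 1304, 1040 and 1400 after overexpression, and 1924, 1664 and 2569 after knockdown. They showed no drop in control 3 but were lowest in overexpression 2, the other library with low MAX.

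MXD4, a repressor that pairs with MAX or MLX, had the largest fold change of the 8 tested members after overexpression. Its FPKM was 6.12, 7.19 and 6.39 in control, 1.75, 1.34 and 1.53 after overexpression, and 5.18, 5.37 and 5.62 after knockdown. The overexpression libraries lay below all others without overlap, and the knockdown libraries lay just below the controls. MXD4 fell by 2.01 ± 0.11 on the log2 scale after overexpression (edgeR adjusted p = 3.82e-06), from a mean of 6.57 ± 0.554 to 1.54 ± 0.202 FPKM (SD, n = 3). It was also lower than in knockdown, by -1.71 ± 0.11 (adjusted p = 1.03e-05). After knockdown the change of -0.30 ± 0.11 did not pass (adjusted p = 0.110). In the 22 alternatives run, the change after overexpression ranged from -2.16 to -1.57 and was called in each.

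MNT, a broadly expressed MAX-binding repressor, had little spread. The controls read 2.79, 2.65 and 2.51 FPKM, the overexpression libraries 1.71, 1.68 and 1.79, and the knockdown libraries 3.15, 3.33 and 3.00. Hence the 3 groups did not overlap with each other, with overexpression lowest and knockdown highest. MNT fell by 0.54 ± 0.08 on the log2 scale after overexpression (edgeR adjusted p = 0.000627). The difference of 0.23 ± 0.08 after knockdown did not pass (adjusted p = 0.0907), though it did with DESeq2 (adjusted p = 0.0336) and on the TPM scale (adjusted p = 0.0443). Between overexpression and knockdown the change was -0.77 ± 0.08 (adjusted p = 9.89e-05). The call after overexpression was lost without the 4 libraries with hepatocyte transcripts (-0.72, adjusted p = 0.0512).

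MXI1 and MXD3, further MAX-binding repressors, changed less firmly. MXI1 stood at 2.48, 3.07 and 2.14 FPKM in control, 1.23, 1.60 and 1.66 after overexpression, and 2.40, 2.72 and 1.69 after knockdown, so that its overexpression group lay below both others but close to knockdown 3. It fell by 0.69 ± 0.20 on the log2 scale after overexpression (edgeR adjusted p = 0.0165) and had a change of -0.19 ± 0.20 after knockdown (adjusted p = 0.569). The call was lost on the TPM scale (adjusted p = 0.102), without control 2 (0.0580), without overexpression 1 (0.0513) and without the 4 libraries with hepatocyte transcripts (0.276).

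MXD3 stood at 6.95, 7.80 and 8.61 FPKM in control, 6.10, 5.80 and 6.24 after overexpression, and 8.64, 7.95 and 9.18 after knockdown. The overexpression libraries were the lowest 3 of the 9. MXD3 fell by 0.28 ± 0.10 after overexpression (edgeR adjusted p = 0.0438). That call was lost in 10 of 22 alternatives (adjusted p of 0.0529 or more). The fit without the 4 libraries with hepatocyte transcripts was 1 of them. Between overexpression and knockdown MXD3 differed by -0.41 ± 0.10 (adjusted p = 0.00921), a call lost only without those 4 libraries. The locus overlaps PRELID1 on the opposite strand, with 7119 to 13188 counts per library, and the strand rule for counting is not known. It also overlaps RAB24 on the same strand. RAB24 counts were 1465, 1563 and 1553 in control, 1303, 1040 and 1194 after overexpression, and 901, 940 and 1156 after knockdown. These unscaled counts were below control in both treated groups, in overexpression libraries with low MXD3 and in knockdown libraries without, and the split of shared reads is not shown by the table.

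MXD1, a repressor induced as many cells differentiate, was the scarcest member. Its FPKM was 0.316, 0.592 and 0.512 in control, 0.625, 2.87 and 0.753 after overexpression, and 0.560, 0.819 and 0.858 after knockdown. Overexpression 2 stood apart from the rest, at 1381 counts beside 299 and 365 in the same group. SNRNP27, which overlaps it on the same strand, was also highest there, at 2103 counts against 1555 and 1538. In a fit of 32974 genes without the filter, MXD1 differed from control by 1.63 ± 0.53 after overexpression (edgeR adjusted p = 0.0559) and by 0.65 ± 0.52 after knockdown (adjusted p = 0.575).

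As a description of balance, the FPKM of the 5 MAX-binding repressors (MXD1, MXD3, MXD4, MXI1 and MNT) was summed. The sum was 18.7, 21.3 and 20.2 in control, 11.4, 13.3 and 12.0 after overexpression, and 19.9, 20.2 and 20.3 after knockdown. The overexpression libraries were low and did not overlap the other 6. MYC per unit of that sum was 0.703, 0.577 and 0.632 in control, 3.15, 2.28 and 0.368 after overexpression, and 0.627, 0.517 and 0.0522 after knockdown. The ratio therefore rose in overexpression 1 and 2 but was below every control in overexpression 3. It compares RNA levels and not proteins.

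In the MLX branch the partners behaved differently. MLX, the dimer partner, stood at 12.8, 15.2 and 14.8 FPKM in control, 13.3, 17.4 and 14.2 after overexpression, and 15.0, 13.5 and 15.5 after knockdown. All groups overlapped. The log2 fold changes were 0.15 ± 0.13 after overexpression (edgeR adjusted p = 0.340) and 0.03 ± 0.13 after knockdown (adjusted p = 0.900).

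MLXIP, the glucose-sensing partner, was the member called in all 3 comparisons. It stood at 6.84, 7.96 and 6.99 FPKM in control, 3.75, 4.01 and 3.59 after overexpression, and 5.62, 5.86 and 5.40 after knockdown. None of the 3 groups overlapped, with control highest, knockdown between and overexpression lowest. MLXIP fell by 0.86 ± 0.08 on the log2 scale after overexpression (edgeR adjusted p = 3.58e-05) and by 0.38 ± 0.08 after knockdown (adjusted p = 0.0137). It differed by -0.48 ± 0.08 between overexpression and knockdown (adjusted p = 0.00103). The knockdown call was lost on the TPM scale (-0.23, adjusted p = 0.210), without knockdown 1 (adjusted p = 0.0540) and without the 4 libraries with hepatocyte transcripts (adjusted p = 0.254). The call between overexpression and knockdown was also lost without those 4 libraries (adjusted p = 0.0605).

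Of 4 related factors outside the member list, only MGA, a MAX-binding giant of the family, passed the filter, and it was not called in any comparison (0.21 after overexpression and -0.11 after knockdown). In the fit without the filter MLXIPL, the liver paralogue of MLXIP, fell by 2.27 after overexpression (edgeR adjusted p = 0.000325) from levels of 0.641, 0.711 and 0.692 FPKM in control to 0.180, 0.0867 and 0.135. After knockdown it stood at 0.315, 0.342 and 0.331, below every control, with a change of -1.05 that did not pass (adjusted p = 0.0821). MYCL fell by 0.83 after overexpression (adjusted p = 0.0262) from similarly low levels, with 0.36 after knockdown (adjusted p = 0.516). MYCN was close to 0 throughout.

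The targets of MLXIP and MLX rose after overexpression. Of a list of 6 genes 5 were tested (TXNIP, ARRDC4, KLF10, HK2 and PFKFB3, without PKLR). These 5 were called higher after overexpression, beside 27.4% of all tested genes. Their median log2 fold change was 2.52, beside -0.0037 for all tested genes. ARRDC4 passed the filter only through the overexpression libraries, where it was high, so the filter favours its place in the count of 5. After knockdown 2 rose (TXNIP and ARRDC4) and HK2 fell, beside 7.02% and 7.43% of all genes. The median was then 0.33, beside 0.016 for all genes. All 5 were higher in overexpression than in knockdown (median 1.88), beside 25.5% of all genes. The promoter stretches of the arrestin-domain genes TXNIP and ARRDC4 are shown because both are textbook targets of MLXIP. Capitals mark the paired motif in TXNIP, starting at -88 (chr1:145996560-145996829, minus strand), and CACGTG in ARRDC4, at -210 (chr15:97960453-97960722, plus strand). TXNIP has 2 windows in the table, and the first with a motif is printed.
TXNIP: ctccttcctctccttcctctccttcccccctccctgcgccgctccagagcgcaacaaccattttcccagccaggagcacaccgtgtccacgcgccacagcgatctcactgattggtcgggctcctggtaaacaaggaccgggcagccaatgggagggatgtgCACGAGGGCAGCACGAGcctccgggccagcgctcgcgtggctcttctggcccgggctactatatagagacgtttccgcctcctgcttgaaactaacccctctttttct
ARRDC4: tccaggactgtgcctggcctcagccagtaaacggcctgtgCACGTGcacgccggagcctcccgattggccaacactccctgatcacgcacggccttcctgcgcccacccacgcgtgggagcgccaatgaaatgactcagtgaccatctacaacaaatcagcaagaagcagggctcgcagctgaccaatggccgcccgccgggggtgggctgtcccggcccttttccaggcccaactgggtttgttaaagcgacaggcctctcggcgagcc
Of 5 genes of the list with a window 4 held CACGTG and 2 (TXNIP and PKLR) the paired motif. Among all genes with a window, tested or not, the shares were 8.77% and 0.619%.

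TXNIP, an inhibitor of thioredoxin and of glucose uptake, stood at 0.797, 0.945 and 0.865 FPKM in control, 4.59, 5.07 and 4.58 after overexpression, and 1.29, 1.37 and 1.62 after knockdown. The 3 groups did not overlap. It rose by 2.52 ± 0.15 on the log2 scale after overexpression (edgeR adjusted p = 4.24e-06) and by 0.70 ± 0.14 after knockdown (adjusted p = 0.0142), the latter lost in 2 of 21 alternatives, 1 of them without the 4 libraries with hepatocyte transcripts (adjusted p = 0.275). ARRDC4, a relative that also limits glucose uptake, stood at 0.660, 0.906 and 0.676 in control, 6.98, 8.26 and 6.85 after overexpression, and 1.46, 1.65 and 0.906 after knockdown. Its overexpression group stood apart, whereas control 2 and knockdown 3 had almost the same level. ARRDC4 changed by 3.38 ± 0.23 after overexpression and by 0.82 ± 0.21 after knockdown, and 13 of the alternatives lost the call after knockdown. Because ARRDC4 passed the filter only through the group where it was high, no p-value is given for it.

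KLF10, a zinc-finger transcription factor, rose from 13.8 ± 0.607 FPKM in control to 126 ± 6.97 after overexpression (log2 fold change 3.27 ± 0.18, edgeR adjusted p = 2.88e-06). PFKFB3, which makes the activator of phosphofructokinase, rose by 1.64 ± 0.46 (edgeR adjusted p = 0.0158). Overexpression 3 stood at 16.0 FPKM and the other libraries of that group at 7.16 and 6.64. Control 1 to 3 were uneven too, at 2.17, 2.58 and 5.30. HK2, the hexokinase that starts glycolysis, rose by 0.48 ± 0.13 after overexpression (adjusted p = 0.0112) and fell by 0.77 ± 0.13 after knockdown (adjusted p = 0.0061). Thus TXNIP and ARRDC4 were higher in both treated groups than in control, and HK2 moved in opposite directions, while MLXIP was lower in both.

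**Figure D3:**
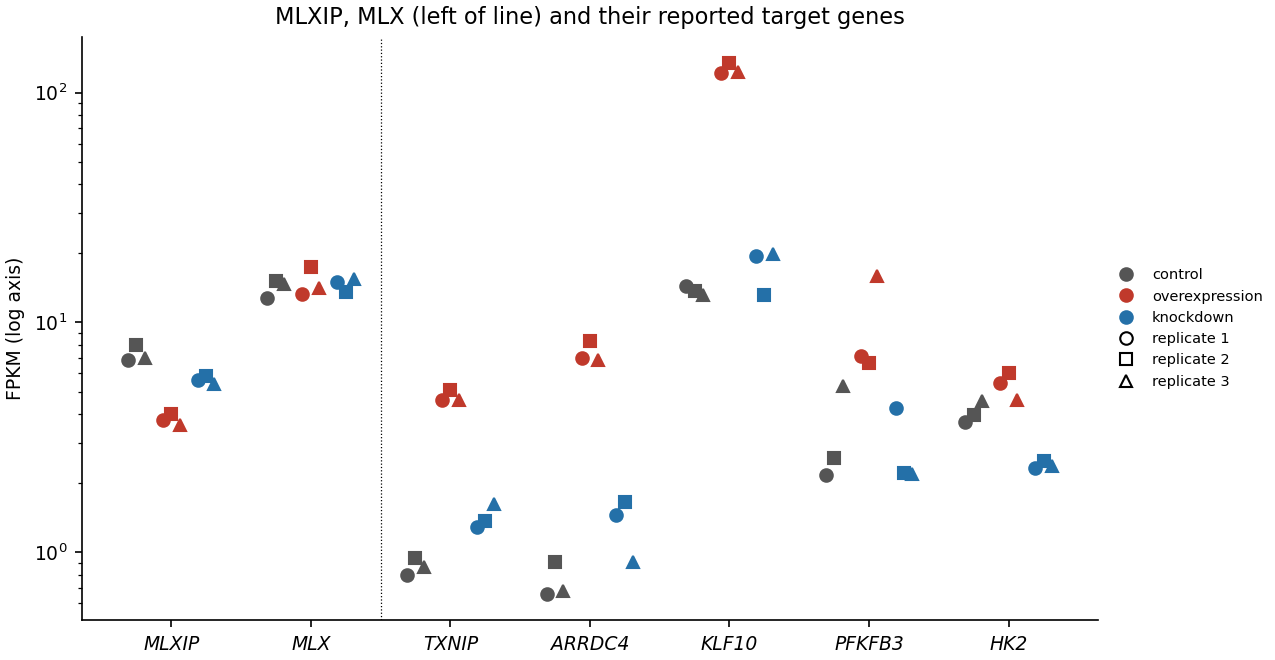
FPKM on a log axis of MLXIP and MLX (left of the dotted line) and of 5 of their target genes, with a colour for each group and a marker shape for each replicate number. MLXIP was lowest in the overexpression libraries (3.59 to 4.01), in which TXNIP (4.58 to 5.07), ARRDC4 and KLF10 were highest.

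MYC's nucleolar targets, genes that build ribosomes, rose together after overexpression: 21 of 25 were called higher and none lower. Over all tested genes 27.4% were called higher and 26% lower. The median log2 fold change of the targets was 0.61, beside -0.0037 for all genes. The 4 not called were FBL, NIP7, NPM1 and WDR12. After knockdown 2 of 25 were called higher (RRP12 and PPAN), near the share of all genes (7.02%), with a median of 0.12 beside 0.016. Against knockdown 20 were higher in overexpression and 1, the rRNA methyltransferase FBL, was lower (-0.42, edgeR adjusted p = 0.0143). Of all genes 25.5% were higher and 24.5% lower in that comparison. RRP12, a ribosome export factor, went from 5.80 ± 0.189 FPKM in control to 27.5 ± 1.79 after overexpression and 9.94 ± 0.222 after knockdown (SD, n = 3). It rose by 2.32 ± 0.07 (adjusted p = 1.85e-07) and by 0.76 ± 0.07 (adjusted p = 0.000384). WDR43, of the small-subunit processome, rose by 1.51 ± 0.08 after overexpression (adjusted p = 2.22e-06), and PES1, of the large-subunit PeBoW complex, by 0.94 ± 0.08 (adjusted p = 2.13e-05). Without the 4 libraries with hepatocyte transcripts 7 of the 25 were called higher and none lower.

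The nucleolar targets were also compared with MYC library by library. Set against the control mean of log2(FPKM + 1), their median was 0.511, 0.506 and 0.551 in overexpression 1 to 3 and 0.113, 0.0922 and 0.160 in knockdown 1 to 3. Overexpression 3 and knockdown 3, the libraries with least MYC, thus had the highest medians of their groups, within 0.1 of the others. In overexpression 1 to 3, 23, 23 and 24 of the 25 genes stood above the control mean, the most where MYC was lowest. In knockdown 1 to 3 the numbers were 19, 22 and 17, the fewest where MYC was lowest, although the median was highest there. The growth and metabolism targets had medians of -0.0435, -0.194 and -0.0524 in overexpression 1 to 3 and of 0.0204, 0.0258 and -0.172 in knockdown 1 to 3. Their lowest knockdown library was thus the one with least MYC, whereas in overexpression it was library 2, in which MYC was high. Measured from the group mean instead, the growth list had medians of 0.0159, 0.0311 and 0.0013 in knockdown 1 to 3. Those of the nucleolar targets were 0.0339, -0.0320 and 0.0194. Below that mean stood 11, 10 and 11 of its 24 genes, and 4, 17 and 10 of the 25 nucleolar targets. Over all tested genes the shares below it were 44.3%, 44.7% and 56.2%. In overexpression 1 to 3 the medians from the group mean were -0.0057, -0.0306 and 0.0221 for the nucleolar targets. For the growth list they were 0.0648, -0.0173 and 0.0060. Below the overexpression mean stood 13, 18 and 10 nucleolar targets and 8, 14 and 11 growth genes, beside 50.3%, 53.2% and 45.2% of all tested genes. MYC RNA was measured here, and MYC protein was not.

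**Figure D4:**
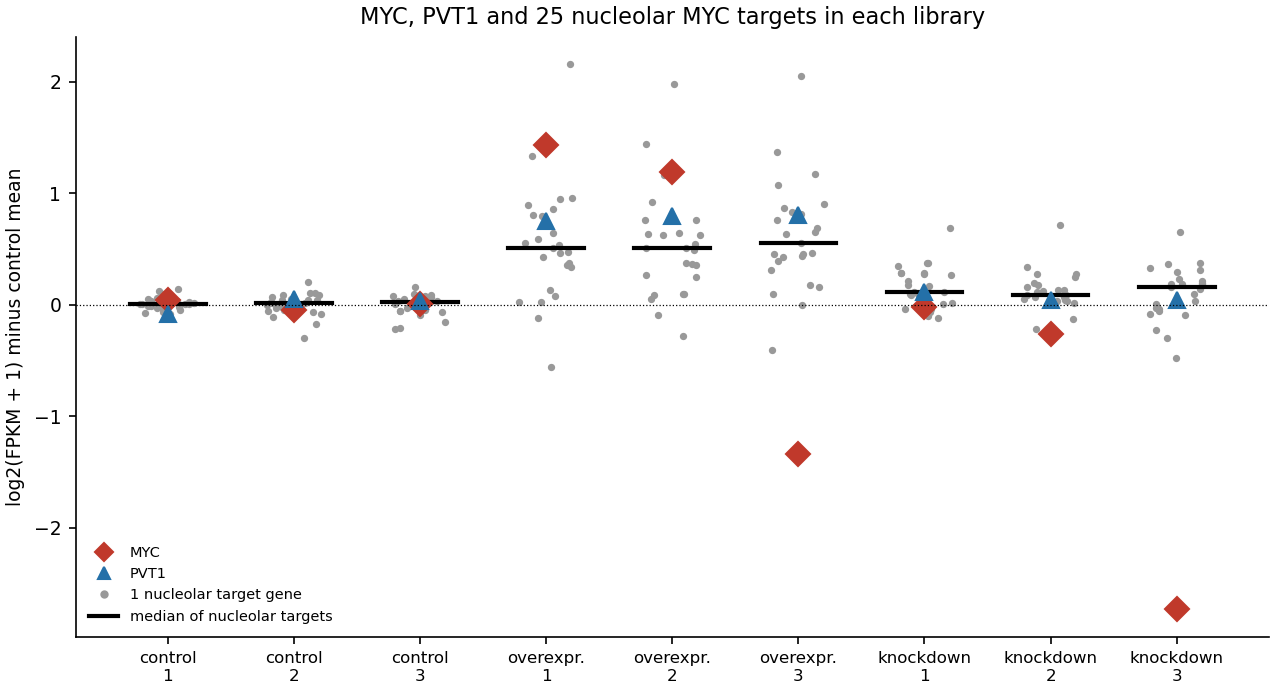
Log2(FPKM + 1) minus its control mean in each library for MYC (red diamonds), PVT1 (blue triangles) and the 25 nucleolar targets (grey points, with a black line at their median). In overexpression 3 MYC lies below 0 while the median of the targets is 0.551 and PVT1 lies above 0.

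In the promoter windows of the MYC target lists, CACGTG was found in 9 of 19 nucleolar targets with a window (47.4%). It was found in 15 of 21 growth and metabolism targets (71.4%), against 8.77% of all genes with a window, tested or not. None of 8 genes repressed by MYC had it. The lists are of genes already known as MYC targets, so these shares are a description and not a test. The stretches of PES1, whose RNA rose after overexpression, and of LDHA, whose RNA fell, are shown as a contrast with the same motif in capitals. PES1 carries it at position 14 after the start (chr22:30591891-30592160, minus strand), and LDHA at both -185 and -87 (chr11:18394313-18394582, plus strand, from 1 of its 2 windows).
PES1: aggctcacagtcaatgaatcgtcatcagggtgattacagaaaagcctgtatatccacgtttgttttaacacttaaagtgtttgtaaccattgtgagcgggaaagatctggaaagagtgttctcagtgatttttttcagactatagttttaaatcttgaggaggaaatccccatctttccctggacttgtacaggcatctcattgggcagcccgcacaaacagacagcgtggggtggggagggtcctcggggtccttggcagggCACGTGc
LDHA: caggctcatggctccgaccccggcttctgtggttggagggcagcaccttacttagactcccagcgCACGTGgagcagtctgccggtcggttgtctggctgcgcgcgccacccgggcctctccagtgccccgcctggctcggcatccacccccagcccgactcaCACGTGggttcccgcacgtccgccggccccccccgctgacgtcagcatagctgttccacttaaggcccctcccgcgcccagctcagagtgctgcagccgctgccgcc

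Growth and metabolism targets of MYC showed no common direction. Of 24 tested of 26, 6 rose and 8 fell after overexpression (median -0.03), and 3 rose and 2 fell after knockdown (median -0.04). Over all genes 27.4% rose and 26% fell after overexpression, and 7.02% and 7.43% after knockdown. ODC1, the rate-limiting enzyme of polyamine synthesis, rose in both, by 0.89 ± 0.09 (edgeR adjusted p = 5.83e-05) and 0.68 ± 0.09 (adjusted p = 0.00207). CAD, of pyrimidine synthesis, did so too, by 0.30 and 0.35 (adjusted p = 0.0029 and 0.00713). LDHA, the lactate dehydrogenase subunit named in the study's title, fell in both, from 147 ± 8.04 FPKM to 76.6 ± 4.61 and 62.7 ± 6.21. SHMT1, the cytosolic serine hydroxymethyltransferase, fell by 1.21 ± 0.10 after overexpression (adjusted p = 1.89e-05). Reads of LDHA and of PTMA, which fell by 0.94 ± 0.15 (adjusted p = 0.00102), may be shared with processed pseudogenes.

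Of genes known to be repressed by MYC, 6 of 11 were tested. After overexpression 4 rose and 1 fell (median 0.91), and after knockdown 2 rose (median 0.19). Over all genes 27.4% rose and 26% fell after overexpression (median -0.0037). After knockdown 7.02% of all genes rose and 7.43% fell (median 0.016). GADD45A, a DNA damage response gene, went from 7.66 ± 0.453 FPKM in control to 180 ± 15.5 after overexpression and 12.5 ± 1.74 after knockdown. It rose by 4.64 ± 0.15 (edgeR adjusted p = 2.43e-07) and 0.70 ± 0.13 (adjusted p = 0.0106). DDIT3, a factor of the stress response, rose by 3.27 ± 0.23 and 0.76 ± 0.21 (adjusted p = 9.85e-06 and 0.0481). CDKN1A, the cell cycle inhibitor p21, rose by 1.20 ± 0.08 after overexpression (adjusted p = 9.85e-06), and CLU fell by 0.49 ± 0.10 (adjusted p = 0.00358). NDRG1 rose by 0.62. GADD45A stood at 198, 173 and 170 FPKM in overexpression 1 to 3, so the library with low MYC was close to the others.

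**Figure D5:**
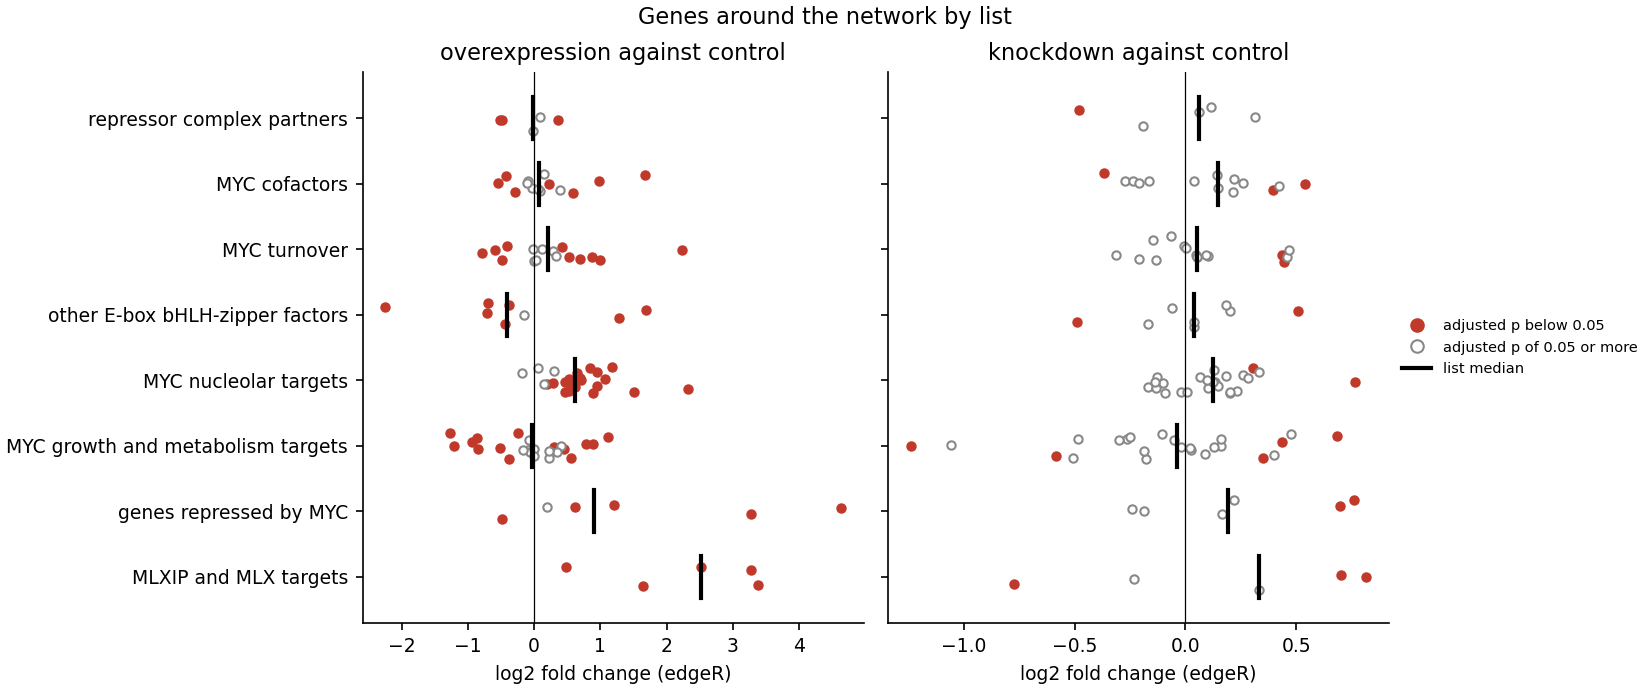
Log2 fold changes of tested genes in 8 lists around the network after overexpression (left) and knockdown (right), 1 point a gene, filled for adjusted p below 0.05, with a black line at each list's median and a different scale in each panel. The medians of nucleolar targets (0.61) and of MLXIP and MLX targets (2.52) lie to the right of 0 after overexpression.

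Among partners that the members recruit, the share of genes called was near that of all genes (53.4% after overexpression and 14.5% after knockdown). Of 5 partners of the repressor complex, SIN3B rose by 0.36 ± 0.08 after overexpression (edgeR adjusted p = 0.00517) and SIN3A and HDAC1 fell by 0.52 and 0.48 (adjusted p = 0.000781 and 0.00224). After knockdown HDAC2 fell by 0.48 ± 0.07 (adjusted p = 0.00418). Of 14 MYC cofactors 4 rose and 3 fell after overexpression, and 2 rose and 1 fell after knockdown. ZBTB17 (MIZ1), through which MYC represses genes, rose from 5.75 ± 0.594 to 17.4 ± 1.10 FPKM (1.67 ± 0.12, adjusted p = 1.38e-05).

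Of 16 genes that set MYC protein turnover, 6 rose and 4 fell after overexpression, and 2 rose after knockdown, beside 53.4% and 14.5% of all genes called. FBXW7 passed the filter only through the overexpression libraries, where it was high, so the filter favours any place of it among the 6. USP36, a nucleolar deubiquitinase that stabilises MYC, went from 6.11, 6.39 and 5.56 FPKM in control to 25.8, 28.2 and 26.8 after overexpression, with 5.51, 5.63 and 5.34 after knockdown. All overexpression libraries stood far above the rest, a rise of 2.24 ± 0.08 (edgeR adjusted p = 2.8e-07). AMBRA1, which promotes dephosphorylation of MYC, rose by 0.99 ± 0.10 (adjusted p = 7.48e-05), and the ubiquitin ligase subunit SKP2 fell by 0.79 ± 0.08 (adjusted p = 9.69e-05). PPP2R5A, a regulatory subunit of protein phosphatase 2A, rose in both treated groups, by 0.52 and 0.44 (adjusted p = 0.000527 and 0.00781).

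Of 8 tested helix-loop-helix zipper factors outside the network that bind E boxes, 2 rose and 5 fell after overexpression, and 1 rose and 1 fell after knockdown, beside 53.4% and 14.5% of all genes called. SREBF1, the driver of fatty acid synthesis genes, stood at 23.9 ± 0.955 FPKM in control, 4.75 ± 0.354 after overexpression and 17.2 ± 1.18 after knockdown (SD, n = 3). It fell by 2.25 ± 0.08 (edgeR adjusted p = 3.4e-07) and 0.49 ± 0.08 (adjusted p = 0.00499), and its order over the groups was that of MLXIP. TFE3, a regulator of lysosome genes, rose from 17.1 ± 0.464 to 52.1 ± 2.12 FPKM after overexpression (1.69 ± 0.07, adjusted p = 7.63e-07), and its relative MITF rose by 1.29 ± 0.19 (adjusted p = 0.00062). USF2 moved in opposite directions, falling by 0.38 ± 0.10 in overexpression cells (adjusted p = 0.0131) and rising by 0.51 ± 0.10 in knockdown cells (adjusted p = 0.0149). Over all 9 lists 72 of 104 tested genes were called after overexpression (49 higher and 23 lower), 20 after knockdown (14 and 6) and 70 between overexpression and knockdown (49 and 21). All genes of the table were called at 53.4%, 14.5% and 50% in these comparisons. Of the 104, 3 passed the filter only through the overexpression libraries, in which they were high: ARRDC4, FBXW7 and TERT.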

How the data were processed

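Messenger RNA was selected with oligo(dT) and the second strand was marked with dUTP, per the labels. Per the submitters' processing notes the tools were StringTie 1.3.4d, HISAT2 2.0.4 and cutadapt 1.9. The sources used here state no settings, no strand rule for counting and no genome build. The authors deposited 1 table with a whole-number read count per gene and library. The same table holds the authors' FPKM values, in which 0 is written as 0.0001. Gene identifiers matched GENCODE 29 on GRCh38 for 58394 of 60612 rows, of which 99.96% overlapped the deposited position.

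The 12545 genes that reached an FPKM of 1 in 3 or more of the 9 libraries were tested on the counts with edgeR 4.0.16 (R 4.3.3), with TMM factors, quasi-likelihood tests and 1 model of 3 groups with 6 residual degrees of freedom. P-values were Benjamini-Hochberg adjusted over all tested genes, with a threshold of 0.05. The standard error is approximate, the absolute log2 change divided by the root of F. The test was checked on simulated data. Total counts were 57115172 to 73386227 per library, and precision of counts covers counting error only. Alternatives used DESeq2 1.42.0, limma 3.58.1, other scalings and filters, a replicate block, and each library left out. The alternative without the 4 libraries with hepatocyte transcripts was chosen after seeing the data. Replicate numbers were not taken to pair libraries.

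The members and lists were chosen with earlier results of these data known. Named genes are all members, up to 3 genes of each list per comparison and direction with the smallest adjusted p, TXNIP, ARRDC4, NUSAP1, LDHA, and the 5 genes most like MYC. PVT1, CASC11, PFKFB3, NDRG1, TERT, the 4 nucleolar targets not called, the overlapping genes and the untested network factors were named after their values were seen. Not every gene under this rule is reported here. Promoter windows come from RefSeq (GRCh38.p14), and CACGTG and the paired motif were searched on both strands.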

Additional observations from a re-analysis of the deposited data

How the results depend on the processing

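The count of 5 members called after overexpression became 3 with a filter of FPKM 5 and 3 with limma on log2(TPM + 1), and lay between 3 and 5 when a library was left out. Without the 4 libraries with hepatocyte transcripts, which leaves 1 control and 1 overexpression library assumed to vary like the knockdown group, the members called were 2 after overexpression, 0 after knockdown and 2 between overexpression and knockdown. List genes called were then 28, 0 and 36. Over all genes that fit called 2419, 6 and 3539. The 1 member called after knockdown became 2 with DESeq2, and 0 to 1 with a library left out (0 without knockdown 1). List genes called with a library left out numbered 61 to 73 after overexpression, 12 to 18 after knockdown (12 without knockdown 1, 13 without control 3) and 56 to 68 between overexpression and knockdown, where members called numbered 4 to 5. Genes called over the table after knockdown were 1813, against 2767 with DESeq2 and 1058 without the filter.

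Changes that turned sign were those of MAX and MLX, none of which was called. MAX after overexpression was -0.12 without control 3 (up to 0.46 with another library left out) and -0.68 without the 4 libraries, and after knockdown it was -0.14 (up to 0.46) and -0.057. MAX between overexpression and knockdown was -0.073 with library totals, -0.024 without the filter, -0.11, -0.14 and -0.026 with limma on log2(FPKM + 1), log2(FPKM + 0.1) and log2(TPM + 1), -0.15 to 0.23 with a library left out, and -0.62 without the 4 libraries (adjusted p = 0.0542). MLX after knockdown was -0.05 without control 1 and -0.050 without knockdown 3 (up to 0.11 with another library left out), and between overexpression and knockdown -0.014 without overexpression 2 (up to 0.20). The TPM scale moved the median of all genes by 0.14 after overexpression and 0.12 after knockdown. The cause was not tested. Of the members' values under the alternatives, 475 kept their direction and their side of the threshold, 18 turned sign, 20 lost a call and 6 gained one.

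Replicate numbers are not known to pair libraries. Deviations of same-numbered libraries correlated between -0.08 and 0.09 for control and overexpression and between 0.091 and 0.188 for control and knockdown. For overexpression and knockdown they correlated between -0.05 and 0.329. With different numbers the ranges were -0.228 to 0.172, -0.152 to -0.017 and -0.393 to 0.325 in the same order. With the replicate number as a block, 7068, 2132 and 6643 genes were called after overexpression, after knockdown and between both. In 2 groups alone with the block, MYC differed between overexpression and knockdown by 1.79 ± 0.12 (edgeR adjusted p = 0.00207), MAX by -0.042, and the MXD3 call after overexpression was lost (adjusted p = 0.0529).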
